A study of Mus musculus with 12 samples.

Results

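Oxidative phosphorylation is the mitochondrial pathway that turns electrons from nutrients into ATP. Complex I accepts electrons from NADH and complex II from succinate, complex III passes them through cytochrome c to complex IV, which reduces oxygen, and complex V is the ATP synthase driven by the proton gradient that the chain builds. Its subunits are encoded by 2 genomes: the small circular mitochondrial DNA, transcribed inside the organelle, and the nucleus, whose transcripts are translated in the cytosol and imported. The genes described here were the protein-coding genes whose symbols start with Nduf, Uqcr, Cox4i, Cox5, Cox6, Cox7, Cox8 or Atp5, together with Sdha, Sdhb, Sdhc, Sdhd, Cyc1, Cycs and the 13 protein genes of the mitochondrial DNA. Of 109 rows that fit these symbols, 100 had a summed count of at least 120 over the 12 tumours, out of 54446 rows in all. The 100 members comprised 10 mitochondrially encoded and 90 nuclear genes. The prefix rule also takes in 8 complex I assembly factors (Ndufaf genes), which help build complex I without staying in it, and Cox7a2l, which joins complexes into supercomplexes.

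RNA was measured in 12 tumours grown under the skin of the back of C3H/HeN mice, which were male and 6 weeks old at injection. Each mouse received cells of Sq-1979, a mouse head and neck squamous cell carcinoma line, in saline with Matrigel. The 4 groups of 3 tumours received a vehicle control, a rat antibody to the inhibitory T-cell surface protein PD1 (anti-PD1), SN-38, or anti-PD1 with SN-38 (here the combination). SN-38 is the active metabolite of irinotecan and an inhibitor of topoisomerase I. By its title the series asks whether SN-38 increases the efficacy of anti-PD1. All 12 tumours came from 1 cell line, no dose or time is given in the sources used here, and nothing in the labels states that the 3 tumours of a group grew in different mice. The p-values therefore reflect only how these samples differed, which may in part be technical.

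Total counts ran from 21088288 to 28512141 per tumour. The pieces were bulk tissue, so fewer cells of a type and less RNA per cell cannot be told apart. Markers of the carcinoma's squamous epithelium were abundant in every tumour, with a summed level of 7368 to 16510 CPM (counts scaled to the same library size with TMM factors). Markers of skeletal muscle were present in amounts that differed between tumours, with a summed level of 24.6 to 453 CPM. SN-38 tumour 1 and combination tumour 2 stood apart with neutrophil marker sums of 136 and 114 CPM, against 11.3 to 55.7 CPM in the other tumours. Combination tumour 2 also had the lowest sum of squamous, fibroblast and muscle markers. Brown adipocyte markers summed to at most 0.116 CPM. SN-38 tumour 2 stood apart with a fibroblast marker sum of 65502 CPM, against 6384 to 32366 CPM in the other 11 tumours.

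The mitochondrially encoded genes did not enter the count table evenly. Mitochondrial mRNAs arise from long shared transcripts, yet the summed counts over 12 tumours ran from 12 for mt-Atp8 to 2314488 for mt-Co1, the catalytic subunit of complex IV. The members mt-Cytb (complex III) with 667453 counts, mt-Nd5 with 359892, mt-Nd1 with 353778, mt-Nd4 with 205779 and mt-Nd2 with 203182 (all complex I) followed. By contrast mt-Co2 and mt-Co3, the other mitochondrial subunits of complex IV, had 163 and 238 counts, and mt-Atp6, the proton channel subunit of ATP synthase, had 241. mt-Nd3, mt-Nd4l and mt-Atp8 had 50, 29 and 12 counts and fell under the minimum of 120. Chromosome 1 carries a stretch of pseudogenes copied from this part of the mitochondrial DNA. Over the bases that could be compared, Gm28661 had 0 differences from mt-Co2 in 681 bases, Gm10925 had 0 differences from mt-Atp6 in 678, Gm28437 had 0 differences from mt-Co3 in 783 and Gm10222 had 0 differences from mt-Nd4l in 294. Gm28438 differed from mt-Nd3 by 1 base in 345.

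The first 60 bases of 2 of these pairs show how little there is to separate a mitochondrial read from its copy. They are shown with capitals for the bases that differ, taken from the GENCODE M21 transcripts on GRCm38. Positions in the substitutions count from 1 at the first base of the mitochondrial gene.
mt-Co2 (chrM:7013-7072, plus strand): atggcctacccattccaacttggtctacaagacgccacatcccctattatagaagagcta
Gm28661 (chr1:24615506-24615565, minus strand): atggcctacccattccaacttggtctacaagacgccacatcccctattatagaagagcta
Gm13341 (chr2:22587903-22587962, minus strand): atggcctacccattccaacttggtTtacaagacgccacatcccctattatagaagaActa
mt-Nd3 (chrM:9459-9518, plus strand): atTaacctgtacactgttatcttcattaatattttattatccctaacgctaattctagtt
Gm28438 (chr1:24613060-24613119, minus strand): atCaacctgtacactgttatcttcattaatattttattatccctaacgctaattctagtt
Gm13341, a partial copy on chromosome 2, differs from mt-Co2 at C25T and G57A in this window, and Gm28438 from mt-Nd3 at T3C.

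The low counts fell on the genes with copies. The share of 50-base words of a gene that also occur in another annotated gene was 98.0% for mt-Nd3, 98.8% for mt-Nd4l, 99.5% for mt-Atp6, 99.9% for mt-Co3 and 100% for mt-Co2. It was 62.2% for mt-Nd4 and 51.1% for mt-Co1, at most 8.19% for mt-Nd2 and mt-Nd5, and 0% for mt-Nd1, mt-Cytb, mt-Nd6 and mt-Atp8. The chromosome 1 copies held from 80 counts (Gm10222) to 1202 (Gm10925), few beside mt-Co1, but the near-identical ones held more than their mitochondrial genes. Gm10925 held 4.99 times the counts of mt-Atp6, Gm28661 4.77 times those of mt-Co2 and Gm28437 4.09 times those of mt-Co3. Gm28438 held 6.9 times the counts of mt-Nd3 and Gm10222 2.76 times those of mt-Nd4l. mt-Atp8 and mt-Nd6 also had low counts (12 and 1909), with no word shared with an annotated gene. The words were searched in annotated genes only, and mt-Atp8 lies between mt-Co2 and mt-Atp6, whose copies on chromosome 1 have an unannotated gap between them, so a copy of it there was not tested. mt-Nd6 is the single mitochondrial protein gene on the opposite strand. How reads with several alignments were counted is not given in the sources used here, and its part in these counts was not tested. The mitochondrial sums below therefore rest mainly on mt-Co1, mt-Cytb, mt-Nd1, mt-Nd2, mt-Nd4 and mt-Nd5. The mitochondrial medians weight all 10 members equally, so the median of the 7 with at least 1909 counts (these 6 and mt-Nd6) is given beside each median change. Among nuclear members 21 of 90 shared at least 10% of their words with another gene, on either strand. Only Ndufaf2 (an assembly factor) shared over 50%, with B230220B15Rik on the opposite strand, which had 7 counts against 2333 for Ndufaf2. Copies on the same strand could hold more counts. Gm6969 shared 13.8% of the words of Cox7a2l and had 21192 counts against 60750. Gm15920 shared 17.7% of those of Ndufa12 and had 4537 against 12345. How counts were divided in such pairs is uncertain.

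**Figure D1:**
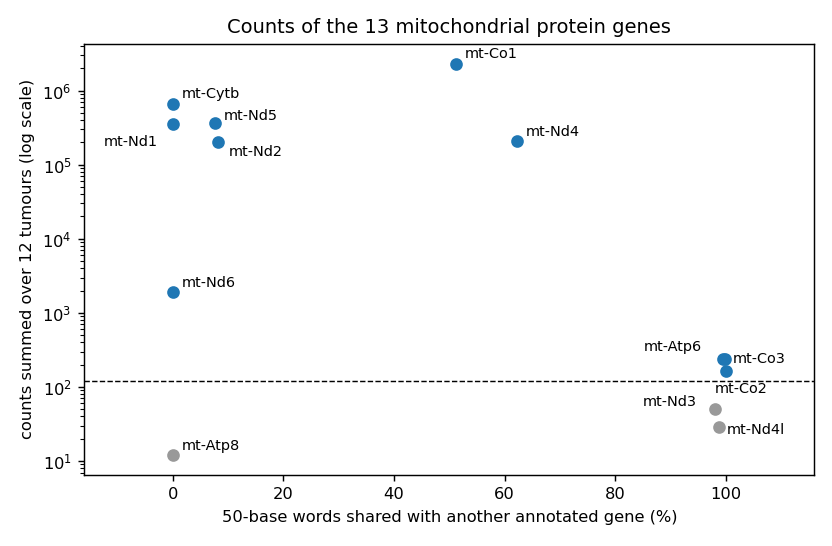
Counts of the 13 mitochondrial protein genes summed over 12 tumours (y axis, log scale) against the percentage of their 50-base words that occur in another annotated gene (x axis). Blue points are members, grey points fell under the minimum of 120 (dashed line), and the 5 genes with at least 98.0% shared words all lie at 241 counts or fewer.

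The promoters of nuclear members were searched for short strings of known regulators of respiration. Of 90 nuclear members, 73 had a RefSeq promoter on GRCm38.p6, taken as 300 bases around the start. The string CGCATGCG, bound by the respiratory regulator NRF1, occurred on either strand in 16.4% of them, against 2.07% of 27025 genes. The ETS string CCGGAAG occurred in 24.7% against 9.93%, the YY1 string AGATGGCG in 12.3% against 2.27%, and the cyclic AMP response string TGACGTCA in 6.85% against 2.03%. The E-box CACGTG was as common in members (8.22%) as in all genes (8.09%), and TATAAA was rarer (6.85% against 15.7%). None of these strings contains another, and a match is a description, not a site. The promoters of 3 members, on the strand of the gene, are given as examples, with the strings found in capitals. They do not span the full range, since the promoter of Atp5l held 5 matches. Cycs, which encodes cytochrome c, held 3 strings, Cox6a1 (the common complex IV isoform) held 2, and Ndufb11 (a complex I membrane subunit) held 0.
Cycs (chr6:50566520-50566819, minus strand): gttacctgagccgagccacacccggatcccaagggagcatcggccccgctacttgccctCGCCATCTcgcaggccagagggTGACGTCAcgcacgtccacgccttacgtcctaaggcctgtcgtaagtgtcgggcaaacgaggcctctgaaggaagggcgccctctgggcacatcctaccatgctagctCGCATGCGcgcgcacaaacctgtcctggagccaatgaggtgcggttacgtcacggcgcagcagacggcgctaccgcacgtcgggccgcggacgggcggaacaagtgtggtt
Cox6a1 (chr5:115348909-115349208, minus strand): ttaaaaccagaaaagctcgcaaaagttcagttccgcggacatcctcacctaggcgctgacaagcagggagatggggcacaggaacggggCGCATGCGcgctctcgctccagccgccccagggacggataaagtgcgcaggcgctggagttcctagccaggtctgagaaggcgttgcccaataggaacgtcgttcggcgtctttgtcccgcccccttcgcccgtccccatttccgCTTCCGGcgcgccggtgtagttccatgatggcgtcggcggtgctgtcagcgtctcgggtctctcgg
Ndufb11 (chrX:20617570-20617869, minus strand): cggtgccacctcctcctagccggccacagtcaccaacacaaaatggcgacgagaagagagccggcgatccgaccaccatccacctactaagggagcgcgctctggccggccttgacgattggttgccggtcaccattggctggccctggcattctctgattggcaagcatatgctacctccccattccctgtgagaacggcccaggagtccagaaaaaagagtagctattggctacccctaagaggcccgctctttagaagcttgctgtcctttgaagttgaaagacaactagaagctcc

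Levels were compared between genes as CPM per kilobase of annotated exon. The length took in the exons of all annotated transcripts of a gene, so the order of genes depends on it. Mitochondrial members took the 6 highest places, led by mt-Co1 at 4881, mt-Cytb at 1901 and mt-Nd1 at 1198 CPM per kilobase. The highest nuclear members were Cox8a, a small complex IV subunit, at 417, the ATP synthase beta subunit Atp5b at 279, and the common complex IV subunit Cox4i1 at 240 CPM per kilobase. Per class, nuclear medians were 31.2 for complex I, 31.8 for complex II, 71.5 for complex III, 85.2 for complex IV, 54.3 for complex V and 5.88 for the complex I assembly factors, all in CPM per kilobase. Within complex II, Sdhd (the membrane anchor, 108) exceeded Sdha (the flavoprotein, 36.7), Sdhc (27.0) and Sdhb (the iron-sulfur subunit, 23.5). In CPM without the length, Sdha (151) lay above Sdhd (133). In nuclear members the spread between tumours was a median coefficient of variation of 10.8%, beside 9.97% in 4025 genes of similar level and 18.6% in mitochondrial members.

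Tissue-restricted isoforms were present at low levels beside their common partners. Cox6a2, the isoform of striated muscle, amounted to 0.158% to 2.69% of the Cox6a1 level. Cox4i2, a complex IV isoform known from lung and hypoxic cells, amounted to 0.169% to 1.06% of Cox4i1. Cox8b, Cox7a1 and Cox6b2, known from muscle and testis, had 93, 102 and 104 counts in all and fell under the minimum, just below mt-Co2 with 163. Cox7b2 had 1 count and a second Atp5o row had 0. Cox8c had 0 of 309628208 counts, which allows up to 0.00969 CPM. Ndufa4l2, an alternative form of Ndufa4 known to be induced by hypoxia, was different, since its level came to 32.1% to 174% of Ndufa4 between tumours. Its CPM was 77.9, 133.5 and 53.7 in vehicle, 97.1, 106.3 and 66.7 in anti-PD1, 127.1, 59.0 and 104.4 in SN-38, and 171.5, 73.5 and 37.1 in the combination tumours. The groups overlapped completely, and the highest and lowest tumours both belonged to the combination.

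The summed levels of both genomes were highest in the same 2 tumours. The summed level of the 10 mitochondrial members was 12582, 13348 and 13950 CPM in vehicle, 11319, 11897 and 12458 in anti-PD1, 11632, 13247 and 16688 in SN-38, and 12815, 18512 and 11984 in the combination tumours. The summed level of the 90 nuclear members was 9066, 9434 and 9641 CPM in vehicle, 8776, 9232 and 8732 in anti-PD1, 8888, 7997 and 9896 in SN-38, and 8295, 11148 and 8360 in the combination tumours. Combination tumour 2 was highest in both sums, while SN-38 tumour 3 was second in both. The ratio of the 2 sums was 1.42 ± 0.03 in vehicle, 1.34 ± 0.08 in anti-PD1, 1.55 ± 0.21 in SN-38 and 1.55 ± 0.11 in the combination (SD, n = 3). The groups overlapped except that the combination tumours, from 1.43, all lay above the anti-PD1 tumours, which reached 1.43, by a margin smaller than the SD. The ratio ran from 1.29 to 1.69 over all 12 tumours, with no test since the members were chosen with results known. mt-Co1 set much of this ratio, since without it the log2 ratio of the combination to vehicle moved from 0.12 to -0.04, an alternative chosen after seeing the data. Without SN-38 tumour 1 and combination tumour 2, the log2 ratio was 0.07 above vehicle in the combination and 0.24 above it in SN-38, against 0.12 in each with all tumours.

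**Figure D2:**
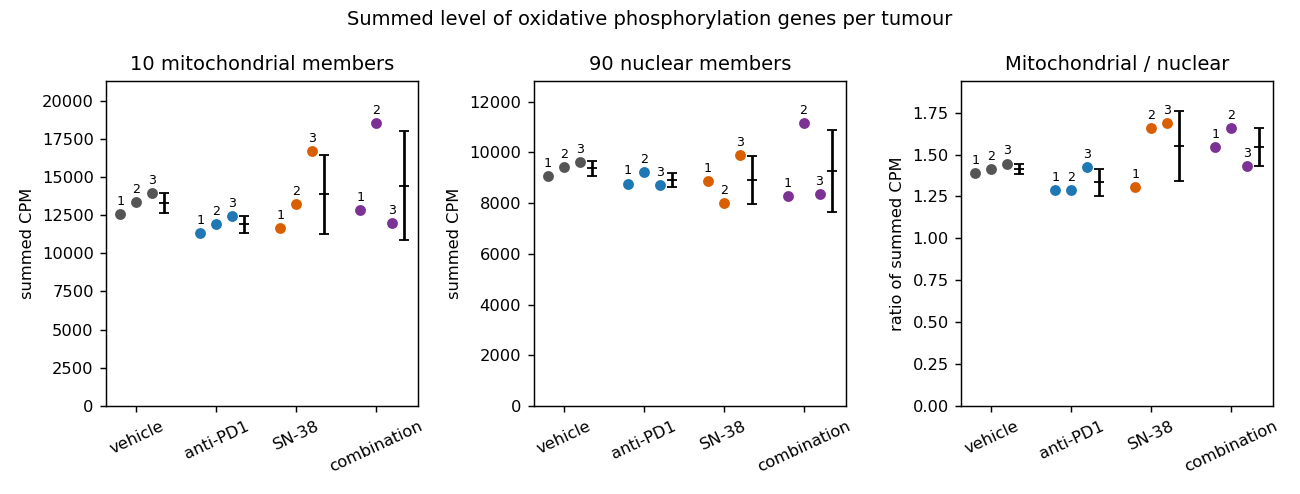
Summed CPM of mitochondrial members (left), of nuclear members (middle) and their ratio (right) in each of 12 tumours, numbered by replicate, with the group mean and SD beside the points (n = 3). Combination tumour 2 lies highest in both sums, at 18512 and 11148 CPM.

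Individual members followed the same tumours. Of 90 nuclear members 44 (48.9%) had their highest level in combination tumour 2, against 15.1% of 16833 genes tested, and 37 (41.1%) had their lowest in SN-38 tumour 2, against 10% of genes. SN-38 tumour 2 is also the tumour with the highest fibroblast markers, whose part in these levels was not tested. mt-Co1 was 11148 CPM in combination tumour 2 and 9269 in SN-38 tumour 3, against 6490 to 7462 in the other 10. Atp5b, the catalytic subunit of ATP synthase, was 1766 CPM in combination tumour 2 and 1012 to 1269 elsewhere. Ndufb5, a complex I membrane subunit, was 127.0 against 64.8 to 91.5. Cyc1, the cytochrome c1 of complex III, was 142.2 against 87.7 to 115. In combination tumour 2 the muscle markers Acta1 (0.28 CPM) and Ckm (0.09 CPM) were near 0, but Mb was 17.95 CPM. Mb made up most of the summed muscle level of 24.6 CPM in this tumour, which was the lowest of all tumours. These nuclear and mitochondrial members were at their highest there. The part of muscle and neutrophil markers in these levels was not tested.

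**Figure D3:**
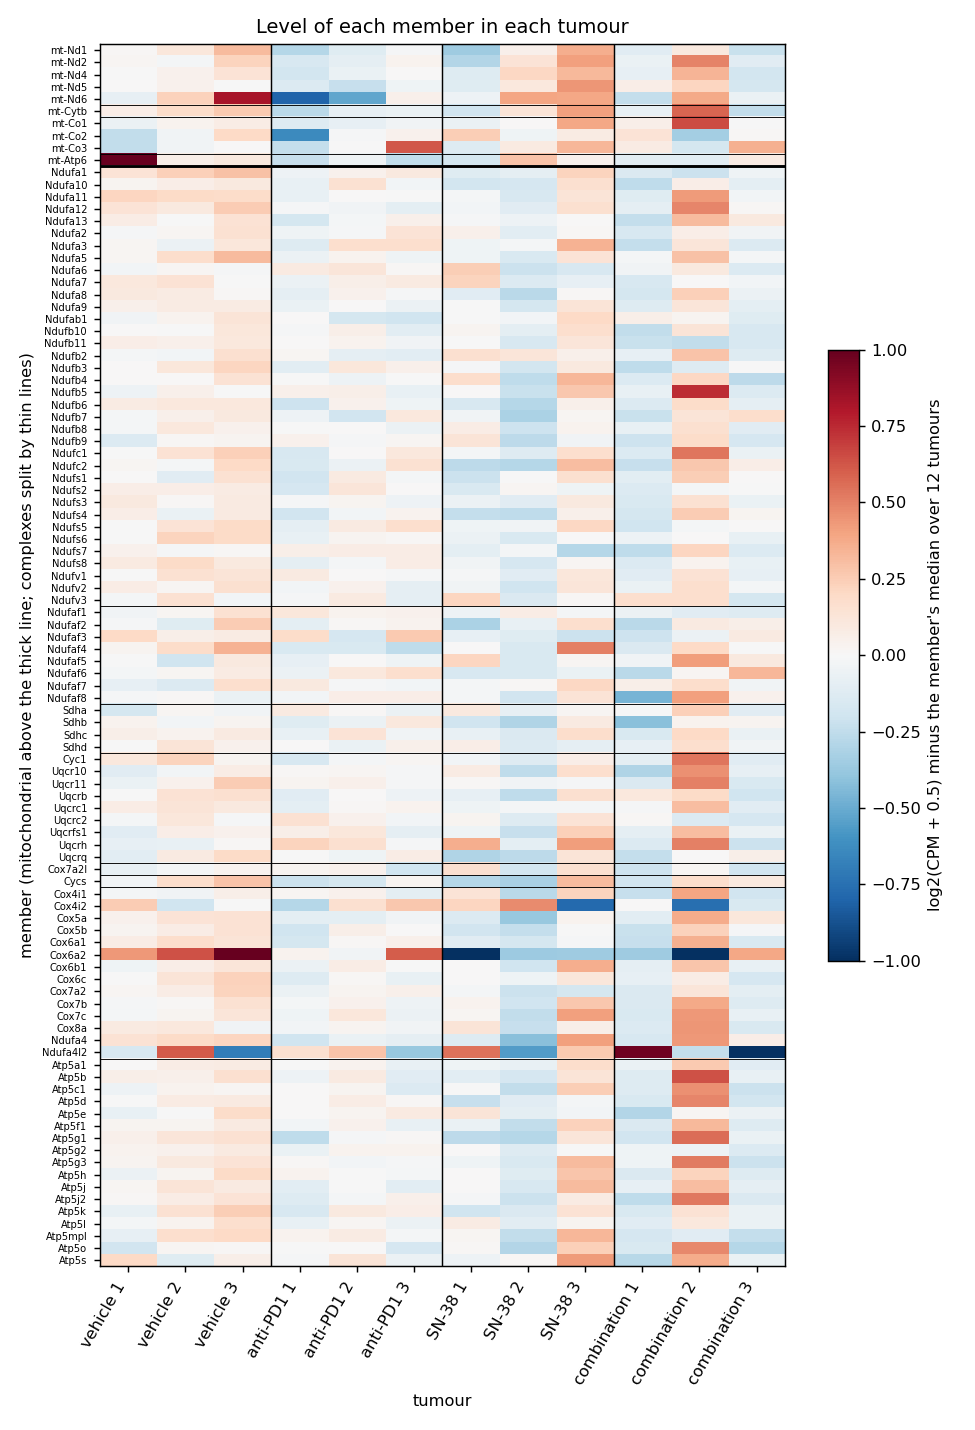
Level of each of the 100 members (rows) in 12 tumours (columns), as log2(CPM + 0.5) minus the member's median over the 12. The column of combination tumour 2 is red in most rows, including mt-Co1, Atp5b and Ndufb5, and Cox6a2 is blue there.

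No member passed an adjusted p of 0.05 in edgeR's quasi-likelihood test in any of the 8 comparisons made. The same test called 1 gene of 16833 in SN-38 against vehicle and none elsewhere. Limma voom called 0 members in every comparison, and DESeq2 called 1, Ndufb11, in the combination against vehicle. Beside these, the numbers of members with an unadjusted p under 0.05 are given, with the share of all genes reaching it in the same direction. Changes are log2 values, given for single genes with their SE (±), and members named here with an unadjusted p alone did not pass the test.

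In anti-PD1 against vehicle, edgeR called 0% of all genes and 0 members. The median change was -0.22 in mitochondrial members (-0.15 in the 7), -0.07 in nuclear members and 0.01 in all genes. Lower values were seen in 9 of 10 mitochondrial and 74 of 90 nuclear members, all 17 ATP synthase members among them, and in 8154 of 16833 genes. In the same comparison 7 of 7 T-cell markers (median 0.69), 6 of 7 macrophage markers (median 0.24) and 5 of 6 neutrophil markers (median 0.54) were higher. Lower values were found in 15 of 15 skeletal muscle (median -0.60), 6 of 7 fibroblast (median -0.35) and 6 of 8 squamous markers (median -0.20). The part of these markers in the members' values was not tested. With an unadjusted p under 0.05, 2 mitochondrial members and 1 nuclear member were lower and 0 were higher, against 1.91% and 3.7% of genes. The 2 mitochondrial ones were mt-Atp6 (-1.08 ± 0.41, edgeR adjusted p = 0.844) and mt-Nd6 (-0.82 ± 0.31, edgeR adjusted p = 0.844). mt-Atp6 had 49 counts in vehicle tumour 1 and 12 to 26 in the other 11 tumours, so a single tumour carries that value. The nuclear one was Ndufaf4, a complex I assembly factor, at -0.39 ± 0.17.

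In SN-38 against vehicle, edgeR called 0 members and 0.00594% of all genes. Nuclear members had a median change of -0.08, with 68 of 90 lower. Mitochondrial members had 0.06 (0.03 in the 7), beside 0.01 in all genes, of which 8216 were lower. Here 6 of 6 neutrophil markers (median 1.67) and 5 of 7 T-cell markers (median 0.05) were higher. Lower values were found in 14 of 15 skeletal muscle (median -1.14), 6 of 7 macrophage (median -0.19) and 6 of 8 squamous markers (median -0.17). Of 7 fibroblast markers 4 were lower (median -0.0051). The part of these markers was not tested. With an unadjusted p under 0.05, 4 nuclear members were lower, against 3.34% of all genes, and 0 members were higher, against 6.7%. They were Cox6a2 (-1.84 ± 0.60), Cox7a2 (a complex IV subunit, -0.25 ± 0.09), and the complex I subunits Ndufs6 (-0.21 ± 0.08) and Ndufs8. Cox6a2 is described further below. SN-38 inhibits topoisomerase I, and the mitochondrial enzyme of that family, Top1mt, was 16.6 to 27.8 CPM over the 12 tumours with a change of -0.14 ± 0.16 in this comparison.

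In the combination against vehicle, edgeR called 0% of all genes and 0 members. The median change was -0.03 in mitochondrial members (-0.02 in the 7), -0.05 in nuclear members and 0.01 in all genes. Of nuclear members 61 of 90 were lower, and of all genes 8145. Here 6 of 6 neutrophil (median 2.15), 7 of 7 T-cell (median 0.83) and 7 of 7 macrophage markers (median 0.39) were higher. Lower values were found in 8 of 8 squamous (median -0.34), 7 of 7 fibroblast (median -1.06) and 14 of 15 skeletal muscle markers (median -1.14). The part of these markers was not tested. At an unadjusted p under 0.05, 6 nuclear members were lower and 0 members were higher, against 4.56% and 8.29% of genes. Of these, 5 were complex I members, among 36 in that class, and Cox6a2 was the sixth. Ndufb11 was lower by edgeR (-0.28 ± 0.08, adjusted p = 0.296), and DESeq2 gave it an adjusted p of 0.0323, in a table where 1.16% of genes were called.

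Ndufb11 and Ndufa1 are small complex I membrane subunits, and both genes lie on the X chromosome. So does the complex IV member Cox7b, which was not among the members with an unadjusted p under 0.05 in the combination against vehicle. Ndufb11 was 112.4, 110.7 and 115.1 CPM in vehicle, 107.2, 109.9 and 104.3 in anti-PD1, 107.0, 95.5 and 116.5 in SN-38, and 91.5, 90.3 and 96.0 in the combination tumours. All 3 combination tumours lay below all vehicle and anti-PD1 tumours, and only SN-38 tumour 2 reached into their range. Ndufa1 was 40.7, 43.7 and 45.4 CPM in vehicle, 35.6, 38.0 and 39.6 in anti-PD1, 34.0, 34.7 and 43.3 in SN-38, and 33.4, 31.8 and 36.0 in the combination. Ndufa1 was below every vehicle tumour in each of the combination tumours (-0.36 ± 0.10, edgeR adjusted p = 0.296). Combination tumour 2, which was highest for 44 of 90 nuclear members, was the lowest of the 12 for both of these genes.

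In the combination against anti-PD1, edgeR called 0% of all genes and 0 members. The median change was 0.22 in mitochondrial members (0.20 in the 7) and 0.03 in nuclear ones. One member, Ndufb11 (-0.21 ± 0.08), was lower with an unadjusted p under 0.05, against 3.16% of genes, and 0 were higher, against 4.8%. In the combination against SN-38, edgeR called 0% of all genes and 0 members. The median was -0.11 in mitochondrial (-0.10 in the 7) and 0.03 in nuclear members. Ndufb11 (-0.20 ± 0.08) was lower and Cox5a, a nuclear subunit of complex IV, was higher (0.29 ± 0.13), each 1 member against 3.16% and 4.76% of genes. Cox5a was 103.1, 87.1 and 115.8 CPM in SN-38 and 105.3, 146.7 and 122.3 in the combination tumours, and without SN-38 tumour 1 and combination tumour 2 its change was 0.16. These comparisons share their combination tumours with the one against vehicle.

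For SN-38 averaged over the tumours with and without antibody, edgeR called 0% of all genes and 0 members. The medians were 0.12 in mitochondrial (0.12 in the 7) and -0.03 in nuclear members. At an unadjusted p under 0.05, 4 nuclear members were lower (Cox6a2 at -1.25 ± 0.42, Ndufb11, Ndufa1 and Cox7a2), against 3.27% of genes, and 0 were higher, against 7.21%. For the anti-PD1 effect averaged over SN-38 status, edgeR called 0% of all genes and 0 members, and the medians were -0.14 in mitochondrial (-0.13 in the 7) and -0.02 in nuclear members. Ndufb11, Ndufa1 and 1 mitochondrial member, mt-Nd6, were lower, against 1.53% of genes, and 0 were higher, against 5.14%. For the interaction, the change with anti-PD1 in SN-38 tumours less that in tumours without SN-38, edgeR called 0% of all genes and 0 members. The medians were 0.17 in mitochondrial (0.17 in the 7) and 0.09 in nuclear members, with 9 of 10 and 67 of 90 higher, against 8115 of 16833 genes. In the interaction all 7 fibroblast markers were lower (median -0.73), and all 7 macrophage markers (median 0.40) and 14 of 15 skeletal muscle markers (median 0.53) higher. All 6 endothelial markers were also higher (median 0.41), and 5 of 8 squamous markers lower (median -0.06). The part of these markers was not tested. Cox5a was higher (0.48 ± 0.18, and 0.35 without the 2 neutrophil-rich tumours), 1 member against 3.4% of genes, and 0 were lower, against 4.22%.

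**Figure D4:**
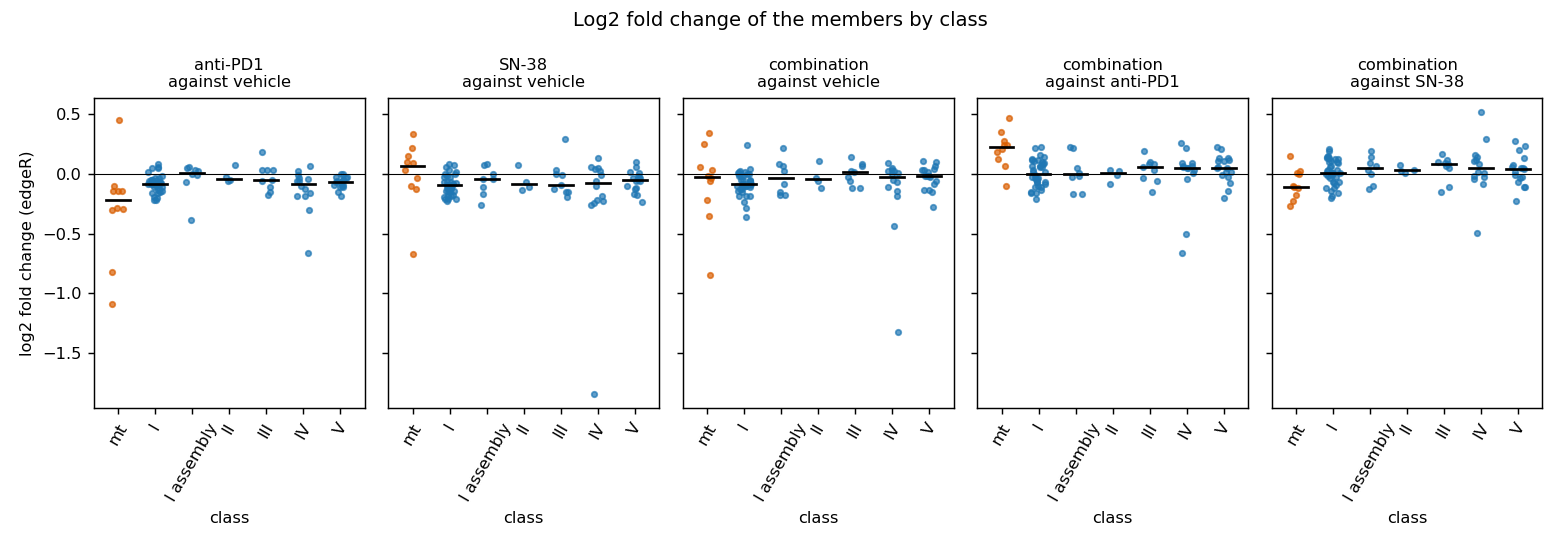
Log2 fold change by edgeR of each member except Cycs and Cox7a2l (points) in the 5 pairwise comparisons, by class, with class medians as bars. Cox6a2 is the low point of complex IV at -1.84 in SN-38 against vehicle, and most other nuclear members lie close to 0.

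Cox6a2, the muscle isoform, was 1.89, 2.25 and 3.36 CPM in vehicle, 1.32, 1.23 and 2.19 in anti-PD1, 0.33, 0.88 and 0.88 in SN-38, and 0.89, 0.23 and 1.82 in the combination tumours. All 3 SN-38 tumours lay below all 3 vehicle tumours. Over the 12 tumours its log2 level correlated with the mean of 15 skeletal muscle markers at r = 0.83 (permutation p = 0.0004, adjusted over 3 relations p = 0.0012) and rho = 0.75 (permutation p = 0.00707, adjusted p = 0.0106). Without SN-38 tumour 1 and combination tumour 2, the farthest from the median of the markers, r was 0.59 (permutation p = 0.0688, n = 10). The strength of the relation therefore depends in part on those tumours. The permutations ran over tumours regardless of group, so these p-values also take in differences between groups. Summed muscle markers were 227 to 453 CPM in vehicle, 158 to 281 in anti-PD1, 71.5 to 244 in SN-38 and 24.6 to 246 in the combination. These ranges overlapped, and 0 of the 15 muscle markers passed the adjusted threshold in any comparison. Against vehicle, 14 of 15 were lower in SN-38 and 14 of 15 in the combination. The part of muscle markers in the Cox6a2 values was not tested. Cox8b, with 93 counts in all, gave r = 0.79 (permutation p = 0.00248, adjusted p = 0.00372), rho = 0.90 (permutation p = 0.00028, adjusted p = 0.00084) and r = 0.88 without those tumours. Cox7a1, with 102 counts, gave r = -0.43 (permutation p = 0.157) and rho = -0.13 (permutation p = 0.700).

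**Figure D5:**
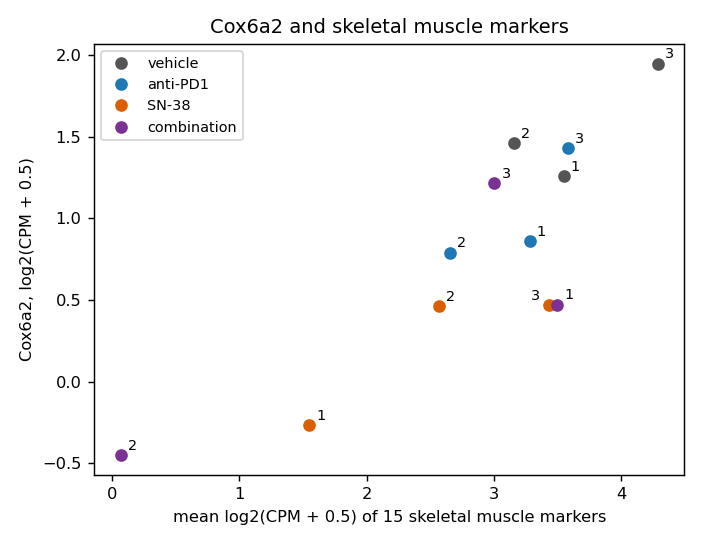
Cox6a2 level, log2(CPM + 0.5), against the mean log2(CPM + 0.5) of 15 skeletal muscle markers, for 12 tumours coloured by group and numbered by replicate. SN-38 tumour 1 and combination tumour 2 lie at the lower left, and r over all tumours is 0.83.

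Genes around the chain gave similar small values. Of 77 tested genes of the mitochondrial ribosome, which translates the mitochondrial members, 65 were lower in anti-PD1 (median -0.06), 68 in SN-38 (median -0.11) and 57 in the combination (median -0.08), each against vehicle, and 0 passed the adjusted threshold. With an unadjusted p under 0.05, 3, 8 and 9 of the 77 were lower, beside 1.91%, 3.34% and 4.56% of all genes, and 0 were higher. In all genes tested, 8154, 8216 and 8145 of 16833 were lower. Of 18 genes of the citric acid cycle, which feeds electrons to the chain, 16 were lower in anti-PD1 (median -0.06) and 13 in SN-38 (median -0.05), while 10 were higher in the combination (median 0.0028), each against vehicle. In the combination against anti-PD1 15 of the 18 were higher (median 0.06), and 0 passed the threshold in any comparison. In the next 3 lists the gene named is the one with the smallest p. Of 40 tested assembly factors outside the rule, 0 passed. Cox17, the copper chaperone of complex IV, had 0.43 ± 0.17 in SN-38 and 0.46 ± 0.17 in the combination against vehicle. With an unadjusted p under 0.05, 1 of the 40 was higher and 1 lower in SN-38. In the combination 1 was higher and 0 were lower. Of 26 genes of mitochondrial DNA and RNA upkeep, Polg2, a subunit of the mitochondrial DNA polymerase, had 0.59 ± 0.16 in SN-38 against vehicle (edgeR adjusted p = 0.306). With an unadjusted p under 0.05, 1 of the 26 was higher and 2 were lower there. Of 9 tested regulators of mitochondrial biogenesis, Nrf1 had -0.20 ± 0.08 in the combination against vehicle (edgeR adjusted p = 0.374), and 0 passed. There 6 of the 9 were higher, and 1 in each direction had an unadjusted p under 0.05. The shares of all genes were 6.7% higher and 3.34% lower in SN-38, and 8.29% and 4.56% in the combination, each against vehicle.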

How the data were processed

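The submitters' processing notes name cutadapt 2.4, STAR 2.7.2a and GRCm38. The counting program, its strand and multi-mapping settings and its annotation are not given in the sources used here. Raw counts deposited by the authors were used as they stand, whole numbers per gene without normalization. Identifiers matched GENCODE M21 for 54409 of 54446 rows, and 37 did not match. Libraries were poly(A) selected with a stranded kit, per the labels' protocols. Counts were scaled by TMM and, after edgeR's filterByExpr, 16833 genes were tested in 1 quasi-likelihood fit of all 12 tumours (edgeR 4.0.16, R 4.3.3), with Benjamini-Hochberg adjustment over all genes and a threshold of 0.05. The 8 comparisons were 5 pairwise ones, 2 averaged effects and their interaction. DESeq2 1.42.0 and limma 3.58.1 were alternatives, and the test was tried on simulated counts. Correlations used 100000 permutations over tumours regardless of group, two-sided, on log2(CPM + 0.5). Shared sequence was counted as 50-base words. The members and lists were chosen with earlier results of these data known. Genes were named by a rule: the mitochondrial genes, isoform pairs, core subunits, called members and the 3 smallest p-values in each direction per comparison. Ndufa1 and Ndufb11 were followed in all comparisons after their values were seen. No 2 tumours of a group agreed within counting noise. Precision limits cover counting error only.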

Additional observations from a re-analysis of the deposited data

Results flagged for a closer look

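Gm10222, the chromosome 1 pseudogene copied from mt-Nd4l, lies outside the comparisons made and had a mean of 0.407 CPM in the combination against 0.264 in vehicle. Its counts were 9, 10 and 11 in the combination and 8, 5 and 7 in vehicle. The difference was not tested.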

How the results depend on the processing

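Of 21 alternative settings, DESeq2 was the one that called a member: 1 (Ndufb11) in the combination against vehicle, where edgeR called 0. Adding the replicate number as a block (replicate block) left 0 members called in all 8 comparisons and the genes called in SN-38 against vehicle at 0. Same-numbered tumours mostly did not deviate together, since 4 of 18 pairs had a correlation over 0.1, with a range from -0.47 to 0.63. The median correlation was -0.055 in these pairs and 0.045 in pairs with different numbers. The labels do not state whether the numbers pair the tumours. These correlations cannot decide it, since differences in cell-type markers between tumours also enter them. The log2 ratio of mitochondrial to nuclear sums moved in the combination against vehicle to -0.037 without mt-Co1, added after seeing the data. Without the 2 neutrophil-rich tumours (SN-38 tumour 1 and combination tumour 2) it moved to -0.167 in the combination against SN-38 and to -0.081 in the interaction. The difference of class medians moved in the interaction from 0.074 to -0.095 in that setting. In the combination against SN-38, where it was -0.137, it ran from -0.217 to -0.00049 when tumours were left out in turn.

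Some genes changed sign. Without the 2 neutrophil-rich tumours, Atp5d was -0.065 for the averaged anti-PD1 effect, Atp5g1 -0.055 and mt-Co1 -0.18 in the combination against SN-38, Ndufb5 -0.103 and Sdha -0.00094 in the combination against vehicle, and Uqcrh -0.037 for the averaged SN-38 effect. Without the 2 T-cell-rich tumours (anti-PD1 tumour 3 and combination tumour 3), Ndufaf6 was -0.0012 for the averaged anti-PD1 effect and mt-Co3 -0.048 in anti-PD1 against vehicle, where it was 0.45 with all tumours. With tumours left out in turn, Atp5d ran from -0.038 to 0.15 and Ndufs7 from -0.0040 to 0.12 for the averaged anti-PD1 effect. Ndufb5 ran from -0.10 to 0.39 and Sdha from -0.0012 to 0.18 in the combination against vehicle. Uqcrh ran from -0.0063 to 0.19 for the averaged SN-38 effect, and Ndufa1 from -0.013 to 0.17 in the interaction. mt-Co1 ran from -0.052 to 0.19 in SN-38 against vehicle and from -0.094 to 0.30 in the combination against SN-38. In anti-PD1 against vehicle mt-Co2 ran from -0.56 to 0.066 and mt-Co3 from -0.045 to 0.70. The cause was not tested. The mitochondrial values of mt-Co2, mt-Co3 and mt-Atp6 rest on 4 to 49 counts per tumour.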
